A study of Mus musculus with 4 samples.

Results

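The levels of 8 genes that serve the passage of fatty acids from blood through the capillary wall were followed across the cells of mouse heart grafts: Gpihbp1, Lpl, Cd36, Fabp4, Fabp5, Pparg, Meox2 and Tcf15. They were taken by symbol, and all 8 were found among the 30905 genes of the count matrix. The data are single-cell RNA counts from 4 grafted hearts collected on day 5 after transplantation, 2 allogeneic grafts from Balb/C donors and 2 syngeneic grafts from C57BL/6J donors. All recipients were C57BL/6J mice, the mice were male and 8 to 10 weeks old, and the labels name no drug and no engineered allele. The grafts were placed in the abdomen, and the dissociated cells hold donor cells together with recipient cells that had entered the graft.

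The counts of the 4 grafts stand in a single matrix in which each cell barcode ends in a suffix from 1 to 4. No source used here pairs a suffix with a graft, so the matrix was treated as 1 pooled sample and no allogeneic graft was compared with a syngeneic graft. Values are given for each suffix as samples of unknown group, with no test between them. Of 53824 deposited cells, 42395 were kept, 9358 to 12496 per suffix, and the median kept cell had 4577.5 to 11891 UMIs (unique molecular identifiers, each standing for 1 captured RNA molecule). Among the barcode sequences, 0.576% occurred under more than 1 suffix. Of the 28 clusters, 12 drew over 90% of their cells from 1 suffix, and 3 could not be named.

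Levels are a gene's share of the non-mitochondrial UMIs of the same cells, in the usual unit CPM, with an exact Poisson 95% interval where one is given. A level is a share of RNA, so it also moves when other RNA of the cells moves. Shares of cells carry exact Clopper-Pearson 95% intervals. All intervals cover counting error only, not the spread between grafts. A gene was called higher or lower when its pooled levels differed at least 2-fold with 10 CPM added to both sides, among genes whose 2 levels averaged at least 10 CPM. Ratios printed in the text are ratios of the levels themselves. Since 1 tag per molecule is read at the 3′ end of a transcript, levels are compared between cells for 1 gene and not between genes.

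The heart burns mainly fatty acids, most of which arrive bound in triglyceride-rich lipoproteins. Lipoprotein lipase, the product of Lpl, is made by parenchymal and stromal cells and splits these triglycerides at the capillary surface, to which GPIHBP1 carries and anchors it. CD36 takes up the released fatty acids, and FABP4 and FABP5 bind them inside the cell. The nuclear receptor PPARγ, the product of Pparg, controls many of these genes, and the heterodimer of the transcription factors MEOX2 and TCF15 is known to drive Cd36 and lipid transport genes in endothelium of the heart.

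In GENCODE M21 on GRCm38, Gpihbp1 lies at chr15:75596628-75599481 and Lpl at chr8:68880491-68907448, both on the plus strand. Cd36 spans chr5:17781690-17888801 on the minus strand. Fabp4, on the minus strand at chr3:10204088-10208576, and Fabp5, on the plus strand at chr3:10012548-10016607, lie close together. Pparg lies at chr6:115360951-115490399, Meox2 at chr12:37108540-37179534 and Tcf15 at chr2:152143561-152149097, all on the plus strand. Pparg overlaps Gm44079 on the opposite strand and Meox2 overlaps Gm48617 on the same strand, and the other 6 genes overlap no annotated gene.

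Fabp4 and Fabp5 are paralogs, and their RNA behaved differently between cells, so the stretch in which their coding sequences are most alike is shown. The whole coding sequences, 399 bases for Fabp4 and 408 bases for Fabp5, were identical at 61.4% of 399 aligned bases, and the longest run of letters shared by both full transcripts was 12 bases. The closest 60-base windows, coding bases 55 to 114 of Fabp4 and 61 to 120 of Fabp5, differed at 16 bases, which stand in capitals.
Fabp4: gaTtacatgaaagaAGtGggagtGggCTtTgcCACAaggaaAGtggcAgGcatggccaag
Fabp5: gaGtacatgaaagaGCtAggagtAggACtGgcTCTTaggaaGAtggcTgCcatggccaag

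RefSeq start-site windows on GRCm38.p6, from 250 bases before to 50 bases after the start, were matched by symbol for 3 of the 8 genes, Cd36, Meox2 and Pparg, and not for Gpihbp1, Lpl, Fabp4, Fabp5 and Tcf15. Cd36 and Meox2 have 1 window each, and both are shown. Both genes were lower in venous and endocardial-like than in capillary-like cells, as was Pparg, whose windows are described below. The Cd36 window lies inside the gene, whose annotated start on the minus strand is at 17888801. Capitals mark the nuclear receptor half-site AGGTCA, the GC box GGGCGG and the TATA box TATAAA, searched on both strands. The Cd36 window at chr5:17835847-17836146, minus strand, held 1 half-site and 2 GC boxes, and the Meox2 window at chr12:37108290-37108589, plus strand, held 1 GC box and 1 TATA box.
Cd36: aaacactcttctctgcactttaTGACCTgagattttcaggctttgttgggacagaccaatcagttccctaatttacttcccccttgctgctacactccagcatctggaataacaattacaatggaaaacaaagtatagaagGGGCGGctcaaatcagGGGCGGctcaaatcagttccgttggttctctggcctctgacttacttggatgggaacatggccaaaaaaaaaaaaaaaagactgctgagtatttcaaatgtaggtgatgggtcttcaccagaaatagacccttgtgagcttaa
Meox2: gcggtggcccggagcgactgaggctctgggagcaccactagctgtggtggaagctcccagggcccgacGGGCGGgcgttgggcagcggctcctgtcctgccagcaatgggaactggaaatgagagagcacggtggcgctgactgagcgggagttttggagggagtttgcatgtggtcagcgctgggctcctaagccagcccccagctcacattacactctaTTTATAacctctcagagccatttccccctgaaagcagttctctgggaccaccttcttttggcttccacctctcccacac

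Of 32544 promoter windows of that length, 16.2% held AGGTCA, 35.9% held GGGCGG and 13.6% held TATAAA. Pparg has 3 windows. The one at chr6:115360894-115361193 held 1 half-site and 1 GC box, the one at chr6:115362099-115362398 held 1 half-site, 2 GC boxes and 1 TATA box, and the one at chr6:115421816-115422115 held none of these motifs. Tags from the 3′ end do not tell which start of Pparg or of Cd36 was used. The direct repeat of the half-site spaced by 1 base, the element at which PPARγ is known to bind, was in 0.0399% of windows and in none of the 5 windows of Cd36, Meox2 and Pparg. The homeobox core TAATTA, the interferon-gamma element TTCNNNGAA, in which N is any base, and the interferon-stimulated element were in 5.29%, 8.33% and 3.45% of windows and in none of the 5 either. These searches covered both strands, and a missing match says only that the letters are not in the window.

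The endothelial-like clusters held 14941 cells, 4600, 5680, 4033 and 628 under suffixes 1 to 4, and were split into 13 groups without using the 8 genes. Named groups came out for 6 vessel types or states. Capillary-like cells numbered 5571 in 3 of the groups, 2124 under suffix 1, 3299 under suffix 2 and 148 under suffix 3. The other named groups were arterial-like with 454 cells, venous and endocardial-like with 313, lymphatic-like with 215, cycling-like with 182, of which 177 had suffix 3, and Cxcl9-rich-like with 616, of which 614 had suffix 4. For the Cxcl9-rich-like and cycling-like groups, group and suffix cannot be told apart. Of the capillary-like groups, group 2 held 2122 cells of suffix 1, 148 of suffix 3 and none of suffix 2. Groups 3 and 6 held the 2255 and 1044 cells of suffix 2, with 2 cells of suffix 1. Capillary-like cells of suffix 2 are therefore other groups than those of suffixes 1 and 3, and group and suffix cannot be told apart there either. The capillary-like cells of suffixes 1 and 3 were led by the interferon-response gene Ifit1, which stood at 591 CPM under suffix 1, 600 CPM under suffix 3 and 20.98 CPM under suffix 2. In the first naming step group 2 was named for interferon-response genes, with 6 of 10 of those markers and 1 of 7 capillary markers. Only the second step, described under processing, named it capillary-like. The capillary-like values of suffixes 1 and 3 rest on that step. The unnamed endothelial groups were 5, among them group 1, led by Aplnr and collagen genes, and group 4, led by Il6 and Tnfsf9. Group 1 held 2999 cells, 1553 under suffix 1 and 1439 under suffix 3. In the second step it met 5 of the 7 capillary markers, as did each capillary-like group. Group 5 met 4, and the arterial-like group, which kept its name, met 3. Groups 1 and 5 stayed unnamed because genes of another class were among their leading genes, so capillary cells may number more than those named.

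Markers of fat cells were checked because Fabp4, Pparg and Cd36 are also adipocyte genes. Adipoq, Plin1 and Cidec, which define fat cells, had 4, 2 and 1 UMIs in all capillary-like cells together, 0.0858 CPM or less each. The 9 adipocyte markers summed to 114 CPM there, nearly all of it from the glycerol channel gene Aqp7 at 113 CPM.

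Against all other kept cells, every one of the 8 genes was higher in endothelial-like cells, where 10.4% of 8828 tested genes were. The pooled ratio was 20.3 for Gpihbp1, 14.8 for Fabp4, 13.4 for Cd36, 12.7 for Tcf15, 9.47 for Pparg, 9.31 for Meox2, 5.85 for Lpl and 2.52 for Fabp5. Within suffix 1, all 8 were again called higher, with 9.23% of tested genes. Within suffixes 2, 3 and 4, 7 of the 8 were called, with 10.2%, 9.57% and 13.3% of tested genes. The gene outside the call was Fabp5 in suffixes 2 and 4, at ratios of 1.72 and 1.86, and Lpl in suffix 3, where endothelial-like cells held 322 CPM and all other cells 309 CPM, a ratio of 1.04 (95% interval 1.02 to 1.06).

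Thinned to 1000 UMIs, 5472 capillary-like cells gave shares with a UMI of 79.5% for Gpihbp1, 72.2% for Lpl, 85.2% for Cd36, 41.6% for Fabp5, 29.2% for Tcf15 and 12.5% for Meox2. Fabp4 was found in 99.96% of them and Pparg had an interval of 10.2% to 11.9%. In T/NK-like cells, which should lack Gpihbp1 and most of these genes, the share at the same depth had an interval of 1.92% to 3.43% for Gpihbp1 and was 2.38% for Lpl, 4.12% for Cd36, 17.3% for Fabp4, 9.97% for Fabp5, 0.542% for Tcf15, 0.325% for Meox2 and 0.217% for Pparg. Without thinning, at median depths of 6010 UMIs in capillary-like and 8421 UMIs in T/NK-like cells, Gpihbp1 was found in 96.7% and 8.55%, Lpl in 93.3% and 10.4%, and Tcf15 in 75.7% and 2.24%. Every gene thus had its higher share in capillary-like cells in these pooled values, with intervals that did not overlap. Of the 1872 T/NK-like cells, 1409 had suffix 4 and 165 suffix 2, the suffix of 3299 of the capillary-like cells. In T/NK-like cells Gpihbp1 was at 2.68 CPM under suffix 4 and 276 CPM under suffix 2, and Fabp4 at 46.6 and 4297 CPM. The pooled T/NK-like shares are therefore a low background for suffix 2.

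**Figure D1:**
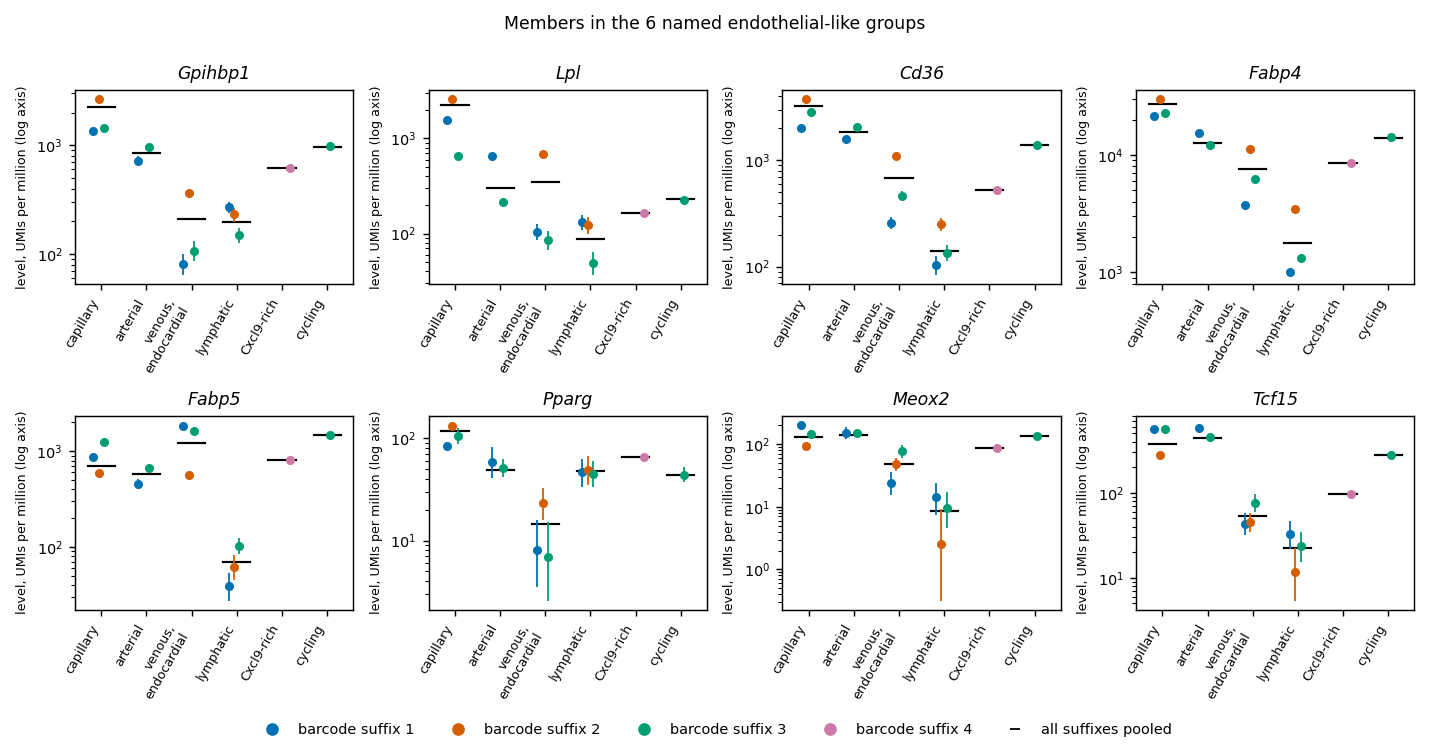
Level of each of the 8 genes (CPM, log axis) in the 6 named endothelial-like groups. Points are barcode suffixes with at least 50 cells of the group and their Poisson 95% intervals, and black bars are all suffixes pooled. Gpihbp1, Lpl, Cd36, Fabp4 and Pparg were at their pooled maximum in capillary-like cells, Meox2 and Tcf15 in arterial-like cells and Fabp5 in cycling-like cells, whose points come from suffix 3 alone.

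Gpihbp1, which encodes the capillary anchor of lipoprotein lipase, stood at 1346, 2675 and 1428 CPM in capillary-like cells of suffixes 1, 2 and 3. Arterial-like cells held 722 CPM under suffix 1 and 964 CPM under suffix 3, and cycling-like cells 977 CPM under suffix 3. In venous and endocardial-like cells the gene was at 80.8, 362 and 107 CPM under suffixes 1 to 3. Lymphatic-like cells held 269, 231 and 149 CPM, and Cxcl9-rich-like cells of suffix 4 held 615 CPM. Each capillary-like value was above each value of the other groups, and those of the venous and lymphatic groups overlapped. Over 26 groups of cells, the capillary marker Cd300lg had the Gpihbp1 pattern most closely (Pearson r = 0.98), followed by Fabp4 and Mcf2l. Cd300lg was among the markers used to name capillary-like cells.

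Lpl, the lipase gene, was the member whose capillary-like level differed most between suffixes. Capillary-like cells held 1554, 2615 and 654 CPM under suffixes 1, 2 and 3. Arterial-like cells held 657 and 213 CPM under suffixes 1 and 3, and venous and endocardial-like cells 104, 678 and 84.7 CPM under suffixes 1 to 3. The lowest capillary-like value lay within the ranges of both groups, yet capillary-like cells were above arterial-like cells within suffixes 1 and 3 and above venous and endocardial-like cells within suffixes 1, 2 and 3. Suffix 2 had 33 arterial-like cells, too few for a value. Lymphatic-like cells had 131, 122 and 48.9 CPM, Cxcl9-rich-like cells 166 CPM and cycling-like cells 227 CPM. The genes nearest to it in pattern were Timp4 (r = 0.90), Lnx1 and Cldn15, and Timp4 was among the markers used to name capillary-like cells.

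Cd36, the fatty acid translocase, was at 2033, 3800 and 2841 CPM in capillary-like cells of suffixes 1 to 3, against 1587 and 2061 CPM in arterial-like cells of suffixes 1 and 3. The 2 groups overlapped across suffixes, since the arterial-like value of suffix 3 exceeded the capillary-like value of suffix 1. Venous and endocardial-like cells held 259, 1109 and 465 CPM, lymphatic-like cells 103, 251 and 135 CPM, Cxcl9-rich-like cells 521 CPM and cycling-like cells 1408 CPM. Fabp4 (r = 0.98) and Gpihbp1 (r = 0.97), both members of the same 8, were nearest to it.

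Fabp4, the adipocyte and capillary fatty acid binding protein gene, held 21658, 30228 and 22897 CPM in capillary-like cells of suffixes 1 to 3. Arterial-like cells were at 15338 and 12051 CPM, cycling-like cells at 14154 CPM and Cxcl9-rich-like cells at 8627 CPM. Venous and endocardial-like cells held 3726, 11314 and 6222 CPM, and lymphatic-like cells, at 1014, 3477 and 1326 CPM, were below every other named group. Its capillary-like values did not overlap those of any other group. The nearest genes were Cd36, Gpihbp1 and the endothelial junction gene Esam (r = 0.98), and Esam was among the markers used to name endothelial-like cells.

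Fabp5 ran in another order. Cycling-like cells had the top pooled level at 1475 CPM, and venous and endocardial-like cells held 1822, 571 and 1632 CPM under suffixes 1 to 3. Capillary-like cells were at 874, 590 and 1258 CPM, Cxcl9-rich-like cells at 814 CPM and arterial-like cells at 457 and 670 CPM. These 5 groups overlapped at each step of the order, and the lymphatic-like values of 39.0, 62.1 and 103 CPM were clearly below them. Slc6a6 (r = 0.87), Hpcal1 and Fhod1 were its nearest genes, and none of the other 7 members was among them.

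Pparg was low in count but ordered. Capillary-like cells held 85.3, 133 and 107 CPM under suffixes 1 to 3, above Cxcl9-rich-like cells at 66.0 CPM, arterial-like cells at 59.0 and 51.5 CPM and lymphatic-like cells at 46.6, 49.1 and 45.1 CPM. In venous and endocardial-like cells 8.08, 23.3 and 6.96 CPM were found, on 8, 33 and 6 UMIs. Lymphatic-like cells were thus above venous and endocardial-like cells for Pparg in each of suffixes 1, 2 and 3. The nearest genes were Cyp4b1 (r = 0.95), the junction gene Cldn5 and Gpihbp1, and Cldn5 was among the markers used to name endothelial-like cells.

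Meox2 and Tcf15, whose products pair as a heart endothelial transcription factor, did not separate capillary-like from arterial-like cells. Meox2 held 199, 93.9 and 145 CPM in capillary-like cells of suffixes 1 to 3 and 151 and 152 CPM in arterial-like cells of suffixes 1 and 3. Tcf15 held 561, 281 and 562 CPM in the former and 575 and 452 CPM in the latter. Both were low in venous and endocardial-like cells, at 24.3, 47.4 and 77.7 CPM for Meox2 and 43.5, 45.2 and 76.5 CPM for Tcf15, and lower still in lymphatic-like cells, at 14.1, 2.59 and 9.40 CPM for Meox2 and 32.5, 11.6 and 23.5 CPM for Tcf15. Jam2 (r = 0.99), Uaca and Palmd were nearest to Meox2, and Lims2 (r = 0.98), Kitl and Hecw2 to Tcf15. These correlations are across groups of cells that share suffixes and depth, and they describe likeness only.

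Which of the 8 genes mark the capillary bed among vessels was read from the 2-fold calls. Against venous and endocardial-like cells, 7 of the 8 were higher in capillary-like cells, with 3.61% of tested genes, the exception being Fabp5, and none was lower, with 5.44%. When only cells with at least 500 genes were clustered, the count was 3, Gpihbp1, Pparg and Tcf15, and the calls of Lpl, Cd36, Fabp4 and Meox2 ended. Within suffixes 1, 2 and 3 the counts were 7, 6 and 6, beside 6.06%, 3.56% and 5.93% of tested genes. No member was lower within suffixes 2 and 3, where 3.88% and 8.51% of tested genes were. Ratios within suffixes ran from 7.39 to 16.7 for Gpihbp1, 3.86 to 14.9 for Lpl, 3.43 to 7.86 for Cd36, 2.67 to 5.81 for Fabp4, 5.72 to 15.3 for Pparg and 6.21 to 12.9 for Tcf15. Meox2 was called in suffix 1 alone, at 8.23, and stood at 1.98 and 1.87 in suffixes 2 and 3. Fabp5 was called lower in capillary-like cells of suffix 1, at 0.480 of the venous and endocardial-like level (95% interval 0.457 to 0.504), where 7.06% of tested genes were lower, and stood at 1.03 and 0.771 in suffixes 2 and 3.

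Against lymphatic-like cells, all 8 were higher in capillary-like cells, with 6.10% of tested genes, and 7, 8 and 8 were within suffixes 1, 2 and 3, beside 7.67%, 7.36% and 8.33%. None of the 8 was lower, pooled or within suffixes 1, 2 and 3, where 8.03%, 9.21%, 5.16% and 9.92% of tested genes were. Pparg had the smallest ratios, 1.83, 2.71 and 2.37. The others ranged from 5.01 for Gpihbp1 in suffix 1 to 36.3 for Meox2 in suffix 2, the latter on 2 lymphatic UMIs and with an interval from 9.08 to 145.

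Against arterial-like cells, 4 of the 8, Gpihbp1, Lpl, Fabp4 and Pparg, were higher in the pooled values, with 3.50% of tested genes. This count did not hold within suffixes. In each of suffixes 1 and 3, 1 of the 8 was called, Lpl in both, beside 3.46% and 4.19% of tested genes. None was lower, pooled or within suffixes 1 and 3, where 4.60%, 3.89% and 4.08% of tested genes were. The Lpl ratio was 2.37 (2.14 to 2.61) in suffix 1 and 3.07 (2.73 to 3.44) in suffix 3. Gpihbp1 stood at 1.86 and 1.48, Cd36 at 1.28 and 1.38, Fabp4 at 1.41 and 1.90, Fabp5 at 1.91 and 1.88, Pparg at 1.45 and 2.07, Meox2 at 1.32 and 0.959 and Tcf15 at 0.976 and 1.24. Suffix 2 supplied 3299 of the 5571 capillary-like cells and 33 of the 454 arterial-like cells, so the pooled ratios compare different suffixes.

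**Figure D2:**
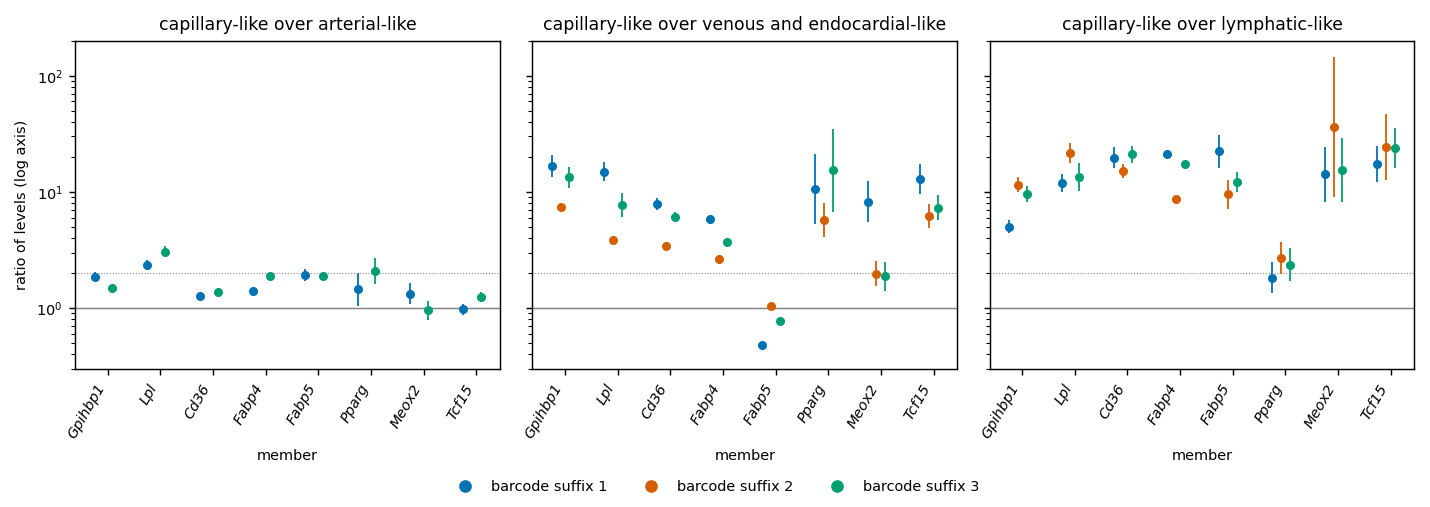
Ratio of the capillary-like level to the arterial-like, venous and endocardial-like and lymphatic-like level of the same barcode suffix (log axis), with 95% counting intervals. The solid line marks 1 and the dotted line 2. Lpl alone was past 2 in both suffixes of the arterial comparison with intervals above 2, and Fabp5 was at or below 1.03 against venous and endocardial-like cells.

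Genes of the wider pathway were counted from a list of 78 in 4 parts. Between endothelial-like and all other cells 57 could be tested, 19 were higher and 11 lower, beside 10.4% and 12% of all tested genes. The median log2 difference was 0.12 beside 0.10 over all tested genes. The uptake part had 6 of 10 higher, with caveolar genes Cavin2 at 747 against 51.2 CPM and Cav1 at 1207 against 94.4 CPM. In the lipolysis part Lipe and Mgll were higher, and Apoe and Pcsk6 lower. No tested gene of binding, activation and storage was higher, and Fabp3, Dgat1, Dgat2 and Hilpda were lower. The remaining genes called higher were in the part of transcriptional and paracrine control, so the count over the whole list is not a count of lipid handling genes. The apelin receptor Aplnr had the largest log2 difference, 3.82, followed by the VEGF receptor Flt1 at 3.66, Cavin2 at 3.63, the monoglyceride lipase Mgll at 3.58 and Sox18 at 3.57. Flt1 was one of the markers used to name the cells. The lowest were the lipoprotein receptor Lrp1 at -3.98, Apoe at -3.25 and Angptl2 at -1.94.

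Capillary-like and venous and endocardial-like cells were compared for 52 listed genes, of which 13 were higher and 5 lower in capillary-like cells. Over all tested genes, 3.61% were higher and 5.44% lower. Aqp7 was at 113 against 3.98 CPM, Mgll at 1241 against 232 CPM and the lipid droplet coat gene Plin2 at 342 against 64.3 CPM. The hormone-sensitive lipase gene Lipe differed by 1.61 on the log2 scale and the lipoprotein receptor gene Scarb1 by 1.49. Apoe stood at 259 against 2346 CPM. Sox17 and Nr2f2 also differed, at log2 2.91 and -2.33, and both belong to the vessel markers. The median was 0.29 beside -0.06 over all tested genes.

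In the arterial comparison, 5 of 51 were higher and 4 lower, with Angptl4, an inhibitor of lipoprotein lipase, at 183 against 23.9 CPM, Hilpda at 109 against 23.6 CPM and Plin2 at 342 against 95.6 CPM. Over all tested genes, 3.50% were higher and 4.60% lower, and the median log2 difference of the list was -0.20 beside -0.14 over all of them. Within suffix 1, 3 of 48 listed genes were higher, beside 3.46% of all tested genes. None of the 3 was among the 12 tested genes of binding, activation and storage, the part that holds Hilpda and Plin2. Within suffix 3, 5 of 52 were higher, beside 4.19% of all tested genes, and 1 of the 5 was in that part. Angptl4, Hilpda and Plin2 also differed between suffixes within capillary-like cells. Angptl4 was at 27.9, 259 and 85.4 CPM under suffixes 1, 2 and 3, and Hilpda and Plin2 were at 27.2 and 151 CPM under suffix 1 and 150 and 438 CPM under suffix 2.

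Levels of the 8 genes within capillary-like cells differed between suffixes for Lpl, Fabp5 and Meox2, which were over 2-fold apart between their lowest and highest suffix, as were 11.4% of tested genes. Suffix 2 was highest for Gpihbp1, Lpl, Cd36, Fabp4 and Pparg and lowest for Fabp5, Meox2 and Tcf15. Its capillary-like cells were in groups 3 and 6, and nearly all those of suffixes 1 and 3 in group 2. Whether these differences belong to the suffix or to the group of cells cannot be told apart. Between suffixes 1 and 3, whose capillary-like cells came from the same Ifit1-led group, 0.326% of tested genes were higher in suffix 1, and Lpl, at a ratio of 2.38 (2.22 to 2.55), was the one member among them. The other 7 ratios lay between 0.695 for Fabp5 and 1.37 for Meox2. Suffix 3 gave 148 cells to this comparison. Within suffix 1, the Ifit1-led capillary-like cells and endothelial group 1 had 591 and 121 CPM of Ifit1, whereas none of the 8 genes was called different between them, beside 2.49% of tested genes higher and 0.383% lower in the Ifit1-led cells.

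Lpl was also higher under suffix 1 than under suffix 3 in other endothelial cells. In endothelial group 1 it was at 1531 and 374 CPM, in group 4 at 711 and 336 CPM, in arterial-like cells at 657 and 213 CPM, a ratio of 3.08 (2.69 to 3.53), and in lymphatic-like cells at 131 and 48.9 CPM, while venous and endocardial-like cells held 104 and 84.7 CPM. Among arterial-like cells, 1.30% of tested genes were higher under suffix 1. Pericyte-like cells, which carried many endothelial UMIs, held 438 and 178 CPM. Macrophage-like cells, at 284 and 135 CPM, and granulocyte-like cells, at 89.7 and 42.0 CPM, also held more under suffix 1. In other cells the values were closer. Fibroblast-like cells held 515 CPM (507 to 524) and 442 CPM (435 to 449), and smooth muscle-like cells 160 and 127 CPM. The cardiomyocyte-like cluster with all 10 cardiomyocyte markers held 513 and 598 CPM. The make-up of the fibroblast-like cells differed, with 1870 of suffix 1 and 512 of suffix 3 in the cluster led by Clec3b. The cluster led by Cilp and Postn held 297 and 1488. Within the Clec3b-led cluster, Lpl was higher under suffix 3 than under suffix 1, as given below. None of these contrasts has replicates, and whether they follow the kind of graft was not tested.

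**Figure D3:**
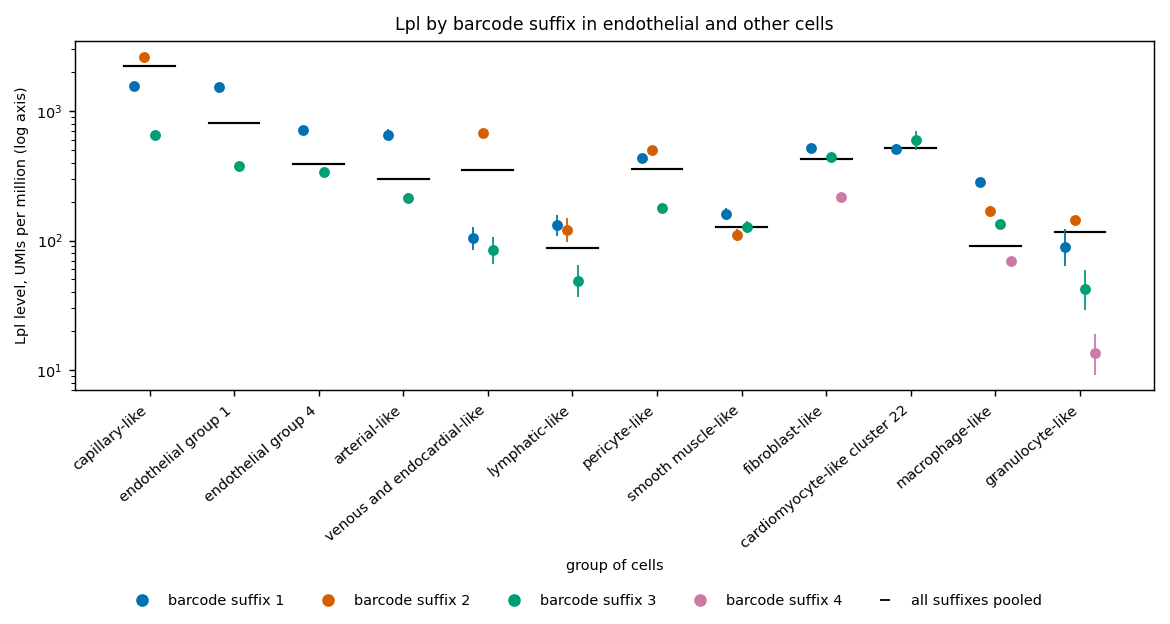
Level of Lpl (CPM, log axis) by barcode suffix in endothelial groups and in other cells, with Poisson 95% intervals and the pooled level as a black bar. Suffix 1 lay above suffix 3 in the capillary-like, unnamed and arterial-like endothelial groups, for example at 1554 and 654 CPM in capillary-like cells, and close to it in fibroblast-like cells, at 515 and 442 CPM.

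Cells of the Cxcl9-rich-like group carried the genes by which they were named, with Cxcl9 at 10281 CPM. Of the 8 genes, 5 were lower there than in capillary-like cells, with 4.33% of tested genes, and none was higher, with 5.29%. Lpl was 13.5-fold lower, at 166 against 2236 CPM. Cd36 was 6.17-fold lower, Tcf15 3.93-fold, Gpihbp1 3.63-fold and Fabp4 3.18-fold. Pparg stood at 0.559 and Meox2 at 0.669 of the capillary-like level, and Fabp5 at 1.17. Of these capillary-like levels 4 moved by over 1.5 times without suffix 2. Those of Lpl, Cd36 and Gpihbp1 were lower, at 1484, 2096 and 1353 CPM, beside 166, 523 and 615 CPM in Cxcl9-rich-like cells, and that of Meox2 was higher, at 195 beside 85.5 CPM. In suffix 3 alone capillary-like cells held 654 CPM of Lpl. The comparison sets suffix 4 against suffixes 1 to 3, and suffix 4 gave no capillary-like cell, so what belongs to the state of the cells and what to the graft cannot be told apart. The macrophage markers summed to 1108 CPM in Cxcl9-rich-like and 139 CPM in capillary-like cells, and the 12 endothelial markers to 6700 and 10301 CPM. The part of these differences in the result was not tested, and the same 5 genes were called when cells with a UMI of the leukocyte gene Ptprc were left out. Among 47 listed pathway genes 13 were lower and 1 higher, with Aqp7 at 9.64 against 113 CPM, Cavin2 at 130 against 644 CPM, Mgll at 486 against 1241 CPM and Apln at 84.4 against 35.6 CPM. The median was -0.53 beside -0.08 over all tested genes.

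Cycling-like cells could be compared with capillary-like cells within suffix 3, where 3 of the 8, Lpl, Cd36 and Pparg, were lower, beside 2.67% of tested genes, and none was higher, beside 6.74%. Over all suffixes pooled, 4 were lower, beside 2.14%, and Fabp5 was higher, at a ratio of 2.12, beside 5.84%. Within suffix 3, Lpl was 2.88-fold lower, Pparg 2.41-fold and Cd36 2.02-fold. Fabp5 was at 1490 against 1258 CPM, a ratio of 1.18.

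Outside the endothelium, Lpl was highest relative to Gpihbp1 in fibroblast-like cells. Free endothelial RNA can enter any droplet, so the level that each gene would have if it accompanied Gpihbp1 at the endothelial-like ratio of the same suffix was computed for every other class. Fibroblast-like cells held 515, 442 and 218 CPM of Lpl under suffixes 1, 3 and 4, which was 29.8, 87.4 and 283 times that level. In suffix 4 the interval of the fibroblast-like multiple was 208 to 385. It overlapped that of the infiltrating monocyte-like group of phagocytes, at 225 times (170 to 299). The reference differed between suffixes, since endothelial-like cells of suffix 4 were nearly all Cxcl9-rich-like, with 166 CPM of Lpl. Gpihbp1 in fibroblast-like cells was at 16.6, 18.7 and 2.86 CPM, the last on 43 UMIs. These multiples of Lpl are therefore not read as an order of suffixes. Thinned to 1000 UMIs, 36.1%, 34.3% and 16.7% of fibroblast-like cells under suffixes 1, 3 and 4 had an Lpl UMI. Granulocyte-like cells of the same suffixes gave 6.52%, 4.69% and 0.971%. One of the fibroblast-like clusters, led by Clec3b, Gsn and Htra3, held 851 CPM under suffix 3 and 538 CPM under suffix 1. In suffix 3 the value of this cluster exceeded the capillary-like value of 654 CPM.

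Cardiomyocytes are the classical source of heart lipoprotein lipase. The cardiomyocyte-like cluster with all 10 markers, 540 cells, held 517 CPM of Lpl (484 to 552), 82.3 CPM of Gpihbp1 and 153 CPM of Cd36. Lpl UMIs per UMI of the troponin gene Tnnt2 were 0.0314 in that cluster and 16.6 in capillary-like cells of suffix 1, and 0.0366 and 7.51 in suffix 3. Tnnt2 is one of the markers by which this cluster was named, at 16365 CPM there and 93.5 CPM in capillary-like cells of suffix 1. The lower ratio in this cluster therefore follows in large part from its naming and does not tell where Lpl is made. A second cardiomyocyte-like cluster, with 10 of the 12 endothelial markers too, held 1003 CPM of Lpl and 1075 CPM of Gpihbp1, and is not read as muscle.

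**Figure D4:**
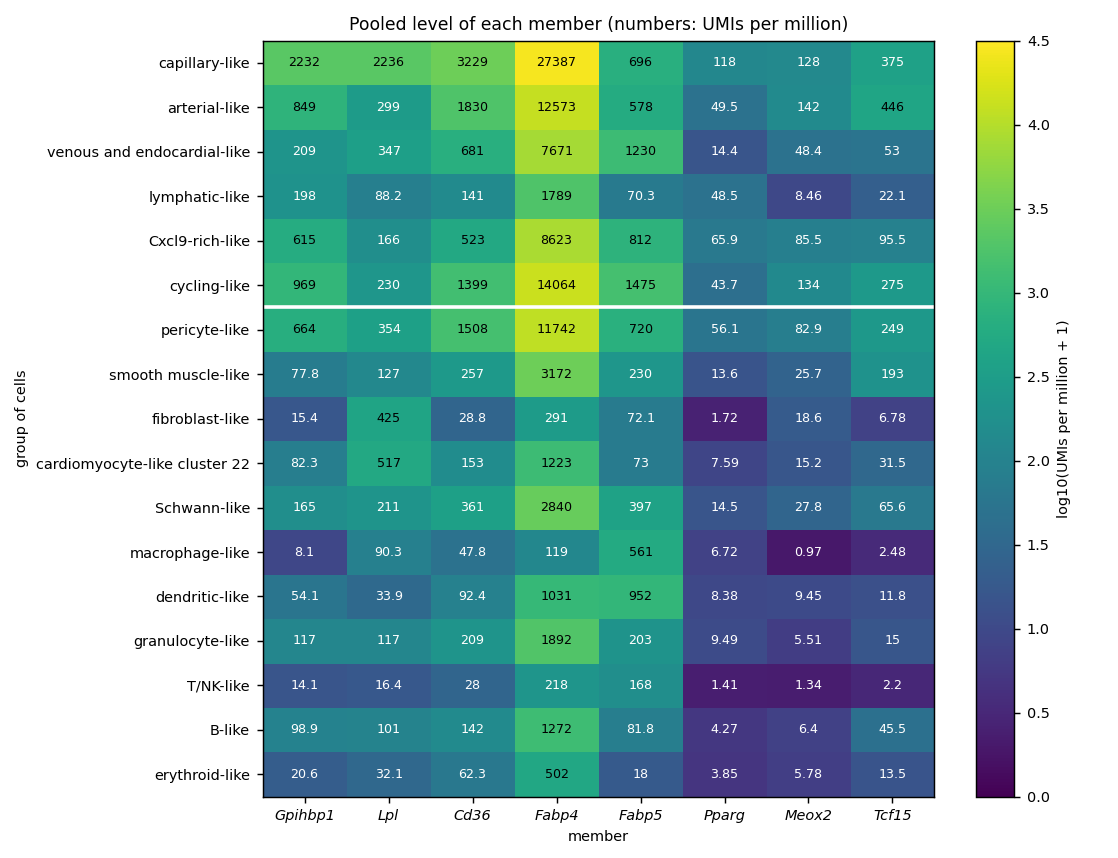
Pooled level of the 8 genes in endothelial groups (above the white line) and other cell classes, with the level in CPM printed in each field and the colour on a log10 scale. Lpl remained above 400 CPM in fibroblast-like cells and in cardiomyocyte-like cluster 22. Fabp5 was above 500 CPM in macrophage-like and dendritic-like cells, where Lpl stood at 90.3 CPM and 33.9 CPM. The dendritic-like class is a shallow cluster of 1267 cells, with a median of 1204 UMIs and 4 of 10 dendritic markers. It is larger than the dendritic-like phagocyte groups of 339 and 77 cells, whose Fabp5 levels are given below. Macrophage-like and dendritic-like cells, grouped again together, also gave shallow unnamed groups of 715 and 377 cells. The former was led in part by T/NK genes such as Gzma and Nkg7, the latter by endothelial genes such as Cdh5 and Gpihbp1. Under suffix 4 the dendritic-like class held 68.4 CPM of Gpihbp1, against 2.12 CPM in macrophage-like cells. Its Fabp5 level is therefore not read as that of dendritic cells.

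Macrophage-like cells, 7538 in all and 5884 of them under suffix 4, had 7 of the 8 genes lower than endothelial-like cells, with 20.3% of tested genes, and none higher, with 12.7%. Fabp5 was the exception, at 561 against 885 CPM, a ratio of 0.634. Within suffixes 1, 3 and 4 the count was again 7, beside 18.7%, 18.2% and 16.4% of tested genes. Within suffix 2 all 8 were lower, beside 16.3%, but only 150 cells of suffix 2 were named macrophage-like. Another 847 cells of that suffix were in unnamed cluster 13, which met 8 of 13 macrophage markers. Those cells held 663 CPM of Fabp5, against 232 CPM in the 150 named cells, so the Fabp5 call in suffix 2 depends on the naming. By suffix, Fabp5 stood at 760, 232, 821 and 514 CPM in macrophage-like cells of suffixes 1 to 4, which was 49.2, 11.8, 27.6 and 184 times the level that accompanied Gpihbp1. Fabp4 was at 405, 1021, 379 and 38.5 CPM, and 0.977 to 1.29 times that level, so the Fabp4 to Gpihbp1 ratio of macrophage-like cells was close to the endothelial one in every suffix. Meox2 and Tcf15 were at 0.886 to 1.36 and 1.09 to 1.29 times it. Cd36 was at 2.22 to 12.8 times and Lpl at 1.99 to 122.8 times.

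Among 12 groups of phagocytes, Fabp5 ranged from 72.9 to 5171 CPM. The highest value, 5171 CPM (5020 to 5326), was found in 77 dendritic-like cells, and 61 of these had suffix 4. After thinning, 62.3% of those with suffix 4 had a Fabp5 UMI (49.0% to 74.4%), against 11.3% of T/NK-like cells of suffix 4. The 339 cells of the other dendritic-like group held 98.8 CPM. Lipid-associated macrophage-like cells held 1430 CPM, Cx3cr1 macrophage-like cells 868 CPM, Cxcl9 macrophage-like cells 540 CPM and infiltrating monocyte-like cells 72.9 CPM. Nearly all Cx3cr1 macrophage-like cells came from suffixes 1 and 3, and nearly all cells of the other 3 of these groups had suffix 4. The place of the Cx3cr1 macrophage-like group in this order therefore cannot be told apart from suffix. Within suffix 4, Fabp5 stood at 1436 CPM in lipid-associated macrophage-like, 540 CPM in Cxcl9 macrophage-like and 72.9 CPM in infiltrating monocyte-like cells. For Lpl the order differed, with 171 CPM in Cx3cr1 macrophage-like cells, 124 CPM in infiltrating monocyte-like cells and 43.2 CPM in lipid-associated macrophage-like cells. Pparg was at 19.2 CPM in Cx3cr1 macrophage-like cells and 9.43 CPM in lipid-associated macrophage-like cells. The lipid-associated name rests on 3 of 8 markers. The Cx3cr1 macrophage-like group met 5 of those 8 beside 5 of 7 of its own, so these names do not separate the groups by lipid-associated markers. Resident macrophage-like cells of suffix 2 held 417 CPM of Cd36, 5.32 times the level that accompanied Gpihbp1. The interval of that ratio was 4.37 to 6.48, and in T/NK-like cells of suffix 2, with 634 CPM of Cd36, it was 1.36 to 1.88. Gpihbp1 was at 54.5 CPM in the former and 276 CPM in the latter.

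**Figure D5:**
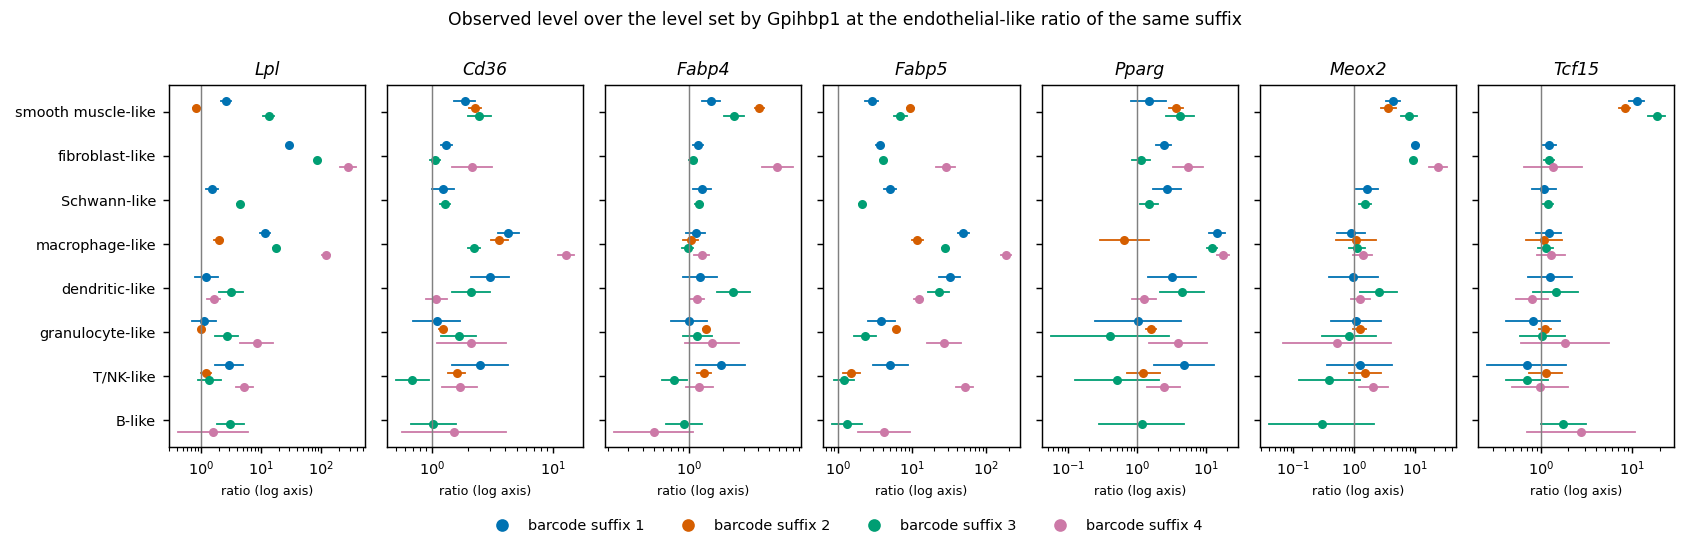
Level of 7 genes in other cell classes divided by the level expected if the gene accompanied Gpihbp1 at the ratio of endothelial-like cells of the same suffix (log axis), with 95% counting intervals. Points near the grey line at 1 keep the endothelial ratio, as Fabp4 did in macrophage-like cells at 0.977 to 1.29. Lpl in fibroblast-like cells, Fabp5 in macrophage-like cells and in the shallow dendritic-like class, and Tcf15 in smooth muscle-like cells lay far to the right. Fabp5 was also high in other classes of suffix 4, at 51.1 in T/NK-like, 28.3 in fibroblast-like and 27.1 in granulocyte-like cells. In T/NK-like cells of suffixes 2 and 3 it was at 1.51 and 1.22. In smooth muscle-like cells of suffix 2, Fabp5 was at 9.46, beside Tcf15 at 8.22.

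Smooth muscle-like cells held Tcf15 and Meox2 above the endothelial ratio, but this was not particular to the 2 genes. In suffixes 1 to 3, Fabp5 was at 2.86, 9.46 and 6.94 times the level that accompanied Gpihbp1. Fabp4 was at 1.57, 4.10 and 2.48 times and Cd36 at 1.87, 2.27 and 2.46 times. Pparg was at 1.46, 3.60 and 4.14 times, and Lpl at 2.64, 0.840 and 13.5 times. Tcf15 stood at 272, 116 and 217 CPM in smooth muscle-like cells of suffixes 1 to 3, 11.2, 8.22 and 18.6 times the level that accompanied Gpihbp1, and Meox2 at 35.8, 17.1 and 29.4 CPM, 4.28, 3.57 and 7.83 times that level. Fibroblast-like cells held Meox2 at 24.0, 18.3 and 9.32 CPM under suffixes 1, 3 and 4, at 10.01, 9.06 and 23.4 times, but Tcf15 at 1.24, 1.23 and 1.35 times. Pericyte-like cells had 249 CPM of Tcf15, 1508 CPM of Cd36 and 11742 CPM of Fabp4, while the 12 endothelial markers summed to 5761 CPM in them, so their values are not separated from endothelial RNA. The endothelial markers summed to 1188 CPM in smooth muscle-like and 370 CPM in fibroblast-like cells.

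The pathway list of macrophage-like against endothelial-like cells had 9 of 52 genes higher and 24 lower, beside 12.7% and 20.3% of all tested genes, and a median log2 difference of -0.79 beside -0.24. Apoe was at 7762 against 395 CPM, Lrp1 at 180.3 against 12.3 CPM and Plin2 at 667 against 224 CPM. The liver X receptor gene Nr1h3 was at 50.5 against 6.48 CPM. Mgll, Cav1 and Cavin2 were the lowest, at 6.14, 9.80 and 4.84 CPM against 1045, 1207 and 747 CPM.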

How the data were processed

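The authors sequenced 4 heart grafts with the 10x Chromium 3′ v3 kit, made UMI counts per gene and cell with Cell Ranger 3.0.0 on mm10, and deposited the counts as a single matrix without normalization. The submitters' processing notes also name CASAVA 1.8 and Seurat. Total counts were 96020294 to 166079145 UMIs per barcode suffix. Shares of cells with a UMI rise with depth, so cells were thinned to 1000 UMIs for them, leaving out cells below that.

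Cells with over 200 genes and under 20% mitochondrial UMIs were kept, 13 mitochondrial genes were removed, and the 5% of cells per suffix most like simulated doublets (50 neighbours) were left out. Each cell's counts were brought to a total of 10000 before the logarithm was taken. The 2000 most variable genes, without the 8 members and without pathway genes that are no marker, gave 10 principal components, and a shared-neighbour graph (30 neighbours) was clustered by Leiden at resolution 0.8, endothelial-like and phagocyte cells again at 0.5, with seed 20. A cluster took the name with the highest share of markers, at least 3, each in 10% of cells and 2-fold over the mean of other clusters. It stayed unnamed if its 10 leading genes held more markers of another class, or if it was shallow and none of its own markers was among them. Other shallow clusters were named, such as endothelial-like cluster 6 with 2314 cells and a median of 955.5 UMIs.

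Because several endothelial-like groups shared capillary markers, a second step was chosen after seeing the data. It took groups with no vessel, Cxcl9-rich or cycling name, among them the group first named for interferon-response genes. They were capillary-like where at least 3 of 7 capillary markers were 2-fold over the arterial, venous and lymphatic groups, unless genes of another class led them. The members and lists were chosen with earlier results of these data known. Named genes were the 8 members, up to 5 pathway genes per direction by size of fold together with some others chosen after their values were seen, and the 3 genes most like each member among 7376 with at least 50 CPM in a group. With 1 pooled sample there was no test. The steps were tested on simulated data. The scripts used leidenalg 0.10.2 with igraph 0.11.9 for clustering, scipy 1.17.1 for intervals, scikit-learn 1.9.0, pandas 2.3.3, matplotlib 3.10.9 and numpy 2.4.6 under Python 3.11.15.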

Additional observations from a re-analysis of the deposited data

How the results depend on the processing

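Of 94 alternative counts of members, 84 lay within 1.5 times the count reported and 10 did not. The count of genes higher in capillary-like than in arterial-like cells, 4 as reported, was 0 with doublets kept, 7 with 20 principal components and 2 with suffixes given equal weight, and 1 to 4 with 1 suffix left out, falling to 1 (Lpl) without suffix 2. The count higher than in venous and endocardial-like cells, 7 as reported, was 3 (Gpihbp1, Pparg and Tcf15) with at least 500 genes per cell. The count over 2-fold apart between suffixes, 3 as reported, was 5 with at least 500 genes, 7 at resolutions 1.6 and 0.8, 5 with members and pathway genes among the variable genes, and 1 to 3 with 1 suffix left out, being Lpl without suffix 2 and Meox2 without suffix 3. The cause of these changes was not tested. Both definitions of capillary-like cells added after seeing the data kept every count for which they gave a value within 1.5 times. The 1-step definition, resolutions 0.4 and 0.3, at least 500 genes, doublets kept, equal weights and leaving out suffix 4 gave no value for some counts because a group or a second suffix was missing. Of 360 levels, 38 moved by over 1.5 times. Pooled capillary-like Lpl was 3839 CPM with doublets kept and 1484 CPM without suffix 2, and pooled macrophage-like Fabp4, 119 CPM as reported, ranged from 79.6 to 508 CPM. Shares of capillary-like cells thinned to 2000 UMIs were larger, 92.1% for Gpihbp1 and 84.8% for Lpl. No paired analysis was possible because no suffix is matched to a graft, so the replicate numbers of the labels reach no cell.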

Other observations

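Cells that could not be named also carried the 8 genes. Cluster 13, led by Arg1, Ccl24 and Ccl9 with 847 of its 1037 cells under suffix 2, held Fabp5 at 663 CPM in that suffix, 52.4 times the level that accompanied Gpihbp1, where granulocyte-like cells held 206 CPM. Its Pparg level was 13.7 CPM, at 4.93 times. Cluster 14, 1011 cells all of suffix 2 and led by Gm26870, Snhg9 and Cxcl3, held 1175 CPM of Lpl, 1941 CPM of Cd36 and 15479 CPM of Fabp4. Cluster 16, led by Prg4, Cxcl5 and Ptx3, met 4 of 11 fibroblast markers. It held 102 CPM of Lpl and 67.1 CPM of Fabp5 under suffix 2, at 2.50 and 7.01 times the level that accompanied Gpihbp1.

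Of the unnamed endothelial groups, 3 kept high levels beside genes of blood cells. Group 5, 2000 shallow cells with a median of 915 UMIs and granulocyte markers summing to 9238 CPM, held 1684 CPM of Gpihbp1 and 1751 CPM of Lpl. Group 10, with erythroid markers summing to 394495 CPM, held 835 and 674 CPM, and group 13, with platelet markers summing to 27752 CPM in 60 cells, held 1172 and 746 CPM.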
